A study of Mus musculus with 8 samples.

Results

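The proteasome genes of mouse liver were examined in 38 genes chosen by symbol, of 55335 genes in the count table. They comprise 31 constitutive subunits of the 20S core and 19S cap and 5 genes of the immune form (Psmb8, Psmb9, Psmb10, Psme1 and Psme2). Psme3 and Psme4, which encode other activators, complete the set. The RNA came from whole livers of 8 female mice, all fed ethanol by the NIAAA model, a chronic ethanol diet that ends with a binge. Ripk1-hepKO mice (numbers 28, 34, 37 and 39) lacked Ripk1 in hepatocytes, while Ripk1-Con mice (29, 32, 40 and 41) were the controls, and genotype was the comparison variable. The Cre driver and the age of the mice are not given in the sources used here. No ethanol-free livers were analysed here.

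The proteasome degrades proteins tagged with ubiquitin. Its 20S core is a barrel of 2 outer alpha rings and 2 inner beta rings, in which Psmb5, Psmb6 and Psmb7 encode the subunits that cut. Interferon-gamma induces Psmb8, Psmb9 and Psmb10, whose products take the places of those 3 subunits in newly built cores, and Psme1 and Psme2, which form the PA28 activator that binds the ends of the core. Leukocytes express this immunoproteasome constitutively, and it shapes the peptides that MHC class I molecules present. When the proteasome is inhibited, the transcription factor NFE2L1 raises the genes of the constitutive subunits together.

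Libraries held 28038390 to 67328158 counts, and levels are given as CPM, counts brought to one library total with TMM factors. Every proteasome gene passed the filter on low counts, with at least 138 counts in each library. Ripk1 stood at 23.1 to 38.1 CPM in Ripk1-hepKO and 27.8 to 53.6 CPM in Ripk1-Con. The groups overlapped, and counts per gene from whole liver neither show a loss of single exons nor leave out the cells that keep the gene. Directions below therefore rest on the labels. Hepatocyte markers were high in each mouse, with summed levels of 108912 to 129761 CPM in Ripk1-hepKO and 122678 to 152663 CPM in Ripk1-Con. Mouse 28 stood apart. It had the highest value of the 8 mice for 26.3% of the 15234 genes tested and the lowest for 26.8%, against 8.30% to 13.4% and 8.23% to 14.7% in the other mice. Several results that lean on mouse 28 are given with and without it.

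No proteasome gene passed the threshold between the genotypes. With edgeR's quasi-likelihood test, 0 of 38 had an adjusted p under 0.05 over all genes tested, as was the case for all genes (0.00% called), and the lowest adjusted p among the 38 was 0.742. The DESeq2 Wald test also called 0 of 38, where it called 0.236% of all genes, and limma voom called 0 with or without sample weights. Psmb8, Psmb10 and Psmc2 had an unadjusted p under 0.05. These 3 make up 7.89% of the set, beside 6.68% of all genes tested. Psmb8 and Psmb10 were the 2 on the higher side (3.86% of all genes) and Psmc2 the 1 on the lower side (2.82% of all genes). The groups did not overlap for Psmb8 and Psmc2, or 5.26% of the set, beside 4.10% of all genes. Of all genes, 2.01% were higher without overlap, as was Psmb8, and 2.09% were lower, as was Psmc2. All these shares lie near the background. The count at an unadjusted p under 0.05 was 1 (Psmb8) without control mouse 40 and 0 without mice 28 and 40. Fold changes were above 0 for 17 genes and below 0 for 21, with a median log2 fold change of -0.01, beside 0.01 over all genes tested. Without mouse 28, 8 of 38 were above 0 and the median was -0.05.

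**Figure D1:**
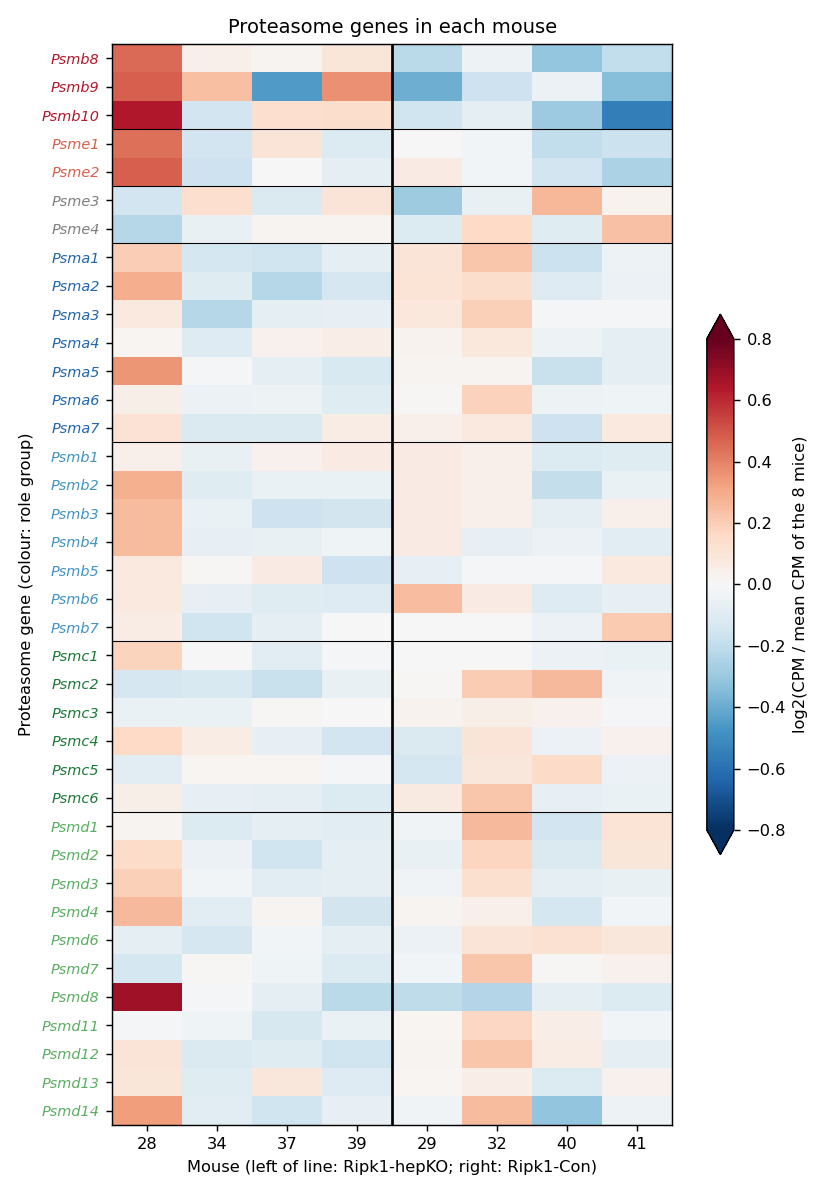
Level of each of the 38 proteasome genes (rows, grouped by role) in each mouse (columns, Ripk1-hepKO left of the line and Ripk1-Con right), as log2 of CPM over the mean CPM of the 8 mice. Mouse 28 was highest for 18 genes, among them all 5 immune genes, and Ripk1-Con mouse 32 for 11 genes.

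The catalytic immune subunits had the highest fold changes of the set. Whole liver mixes hepatocytes with leukocytes, and more cells of a type cannot be told apart from more RNA per cell. Psmb8 (ENSMUSG00000024338, plus strand of chromosome 17, 34197721 to 34201454 on GRCm38) encodes the subunit that replaces PSMB5. It stood at 29.9, 22.5, 22.2 and 23.3 CPM in Ripk1-hepKO mice 28, 34, 37 and 39. Ripk1-Con mice 29, 32, 40 and 41 had 18.8, 21.2, 17.6 and 19.02 CPM. All 4 Ripk1-hepKO mice lay above all 4 controls, mouse 37 only narrowly above control mouse 32. Psmb8 averaged 24.5 ± 3.64 CPM in Ripk1-hepKO and 19.2 ± 1.49 CPM in Ripk1-Con (SD, n = 4 each), a 1.28-fold difference with a 95% interval of 1.05 to 1.55 (edgeR adjusted p = 0.742). Its log2 fold change was 0.35, and 0.24 without mouse 28.

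Psmb10, which replaces Psmb7 (ENSMUSG00000031897, chromosome 8, 105935735 to 105938444, minus strand), had the highest fold change of all 38 genes. It stood at 26.4, 15.3, 18.6 and 18.7 CPM in Ripk1-hepKO mice 28, 34, 37 and 39, against 15.2, 16.1, 13.8 and 11.5 CPM in Ripk1-Con mice 29, 32, 40 and 41. Overlap came through mouse 34, which lay below control mouse 32. On the log2 scale the difference was 0.48 ± 0.18 (SE; edgeR adjusted p = 0.742), and 0.31 without mouse 28.

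Psmb9, which replaces Psmb6 (ENSMUSG00000096727, chromosome 17, 34181987 to 34187764, minus strand), was the lowest of the 38 genes in CPM. It stood at 7.17, 6.08, 3.76 and 6.62 CPM in Ripk1-hepKO mice 28, 34, 37 and 39, against 3.94, 4.59, 4.98 and 4.06 CPM in Ripk1-Con mice 29, 32, 40 and 41. Mouse 37 had the lowest value of all 8 mice, while the other 3 Ripk1-hepKO mice lay above every control. Mouse 28 had the highest value. The log2 fold change was 0.43 ± 0.21 (SE; edgeR adjusted p = 0.762), 0.32 without mouse 28 and 0.60 without mouse 37.

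The PA28 genes were less far apart. Psme1 (ENSMUSG00000022216, chromosome 14, 55578123 to 55581529, plus strand), which encodes the alpha subunit, stood at 76.5, 50.7, 60.6 and 52.4 CPM in Ripk1-hepKO mice 28, 34, 37 and 39. In Ripk1-Con mice 29, 32, 40 and 41 it stood at 56.7, 55.6, 49.2 and 50.02 CPM. Psme2 (ENSMUSG00000079197, chromosome 14, 55587441 to 55591113, minus strand), which encodes the beta subunit, stood at 55.8, 35.8, 40.03 and 38.2 CPM in Ripk1-hepKO mice in the same order, against 42.0, 39.6, 36.2 and 33.7 CPM in Ripk1-Con mice. For both genes mouse 28 was high and the other 3 Ripk1-hepKO mice fell among or just above the controls. The log2 fold changes of 0.18 ± 0.14 and 0.17 ± 0.15 (SE; edgeR adjusted p = 0.812 and 0.838) were 0.05 and 0.01 without mouse 28. Psme2b, a coding copy of Psme2 on chromosome 11, stood at 2.98 to 5.21 CPM in Ripk1-hepKO and 3.28 to 3.99 CPM in Ripk1-Con, so the split of reads between the copies is uncertain.

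The activators outside the immune form did not show the same pattern of values. Psme3, the nuclear activator PA28 gamma (chromosome 11, 101316213 to 101323537), stood at 54.5, 66.6, 56.1 and 65.1 CPM in Ripk1-hepKO mice 28, 34, 37 and 39, against 49.9, 58.3, 73.0 and 61.8 CPM in Ripk1-Con mice 29, 32, 40 and 41. Psme4, the activator PA200 (chromosome 11, 30771726 to 30880361), stood at 96.4, 108, 115 and 115 CPM in Ripk1-hepKO mice in the same order, against 105, 126, 106 and 133 CPM in Ripk1-Con mice. Mouse 28 was the lowest of the 8 for Psme4, and the groups overlapped for both genes (edgeR adjusted p = 0.997 and 0.859).

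**Figure D2:**
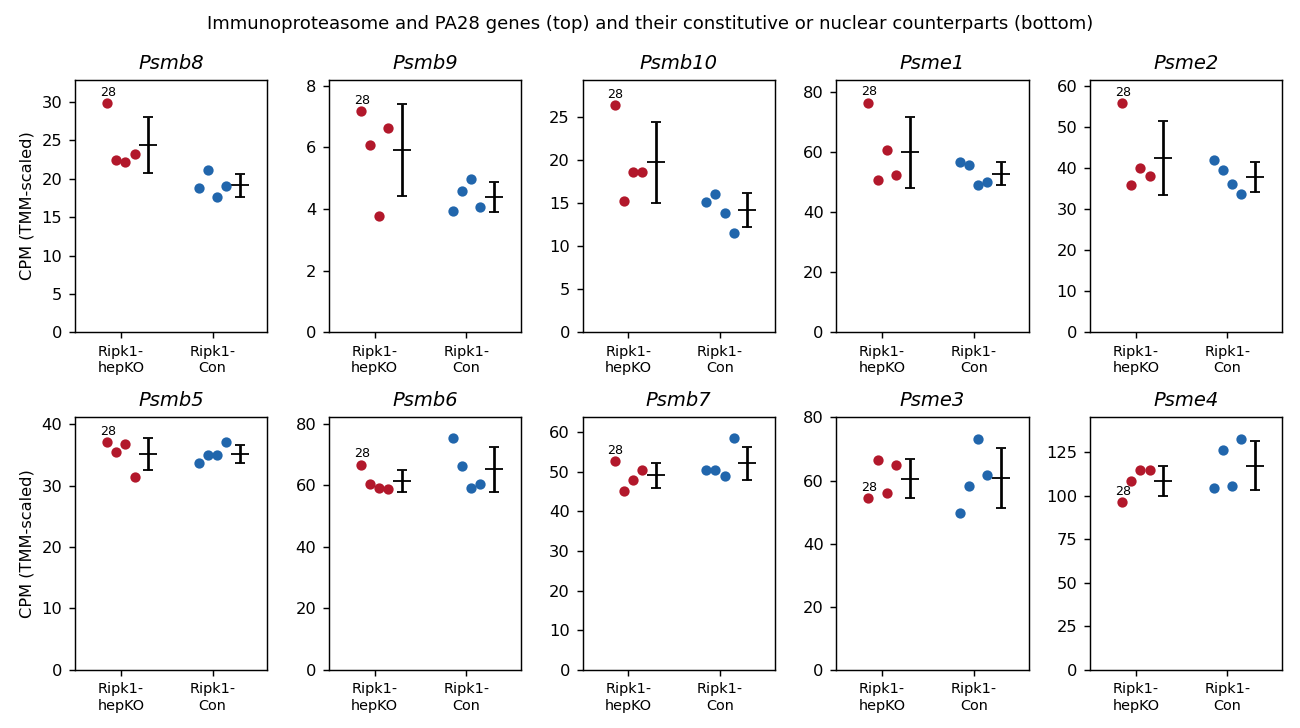
CPM per mouse (points) with mean and SD (bars, n = 4 each) of the 5 immune genes (top) and of Psmb5, Psmb6, Psmb7, Psme3 and Psme4 (bottom), Ripk1-hepKO left and Ripk1-Con right in each panel, with mouse 28 marked. Mouse 28 was the highest of the 8 mice for each gene of the top row, and the groups were apart for Psmb8 only.

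The constitutive partners of the 3 immune subunits stood close together. Psmb5 (chromosome 14, 54614119 to 54618022), which carries the chymotrypsin-like activity, stood at 37.1, 35.4, 36.8 and 31.4 CPM in Ripk1-hepKO mice 28, 34, 37 and 39, against 33.6, 35.0, 35.0 and 37.2 CPM in Ripk1-Con mice 29, 32, 40 and 41. Psmb5 averaged 35.2 ± 2.61 CPM in Ripk1-hepKO and 35.2 ± 1.46 CPM in Ripk1-Con (SD, n = 4 each), and the 95% interval of the fold ran from 0.866 to 1.15 (edgeR adjusted p = 0.998). Psmb6 (chromosome 11, 70525367 to 70527858), with the caspase-like activity, stood at 66.7, 60.3, 59.2 and 58.9 CPM in Ripk1-hepKO, against 75.2, 66.1, 59.0 and 60.4 CPM in Ripk1-Con. The groups overlapped throughout, with control mouse 29 highest. Psmb7 (chromosome 2, 38588036 to 38644087), with the trypsin-like activity, stood at 52.7, 45.3, 48.0 and 50.4 CPM in Ripk1-hepKO, against 50.5, 50.6, 49.0 and 58.4 CPM in Ripk1-Con. Here control mouse 41 was highest (edgeR adjusted p = 0.880 for Psmb6 and 0.871 for Psmb7).

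Setting each immune subunit against the one it replaces gave a ratio within each library that does not depend on scaling between libraries. Levels were divided by gene length, the union of annotated exons. The Psmb8 to Psmb5 ratio was 0.214, 0.169, 0.160 and 0.197 in Ripk1-hepKO mice 28, 34, 37 and 39, against 0.149, 0.161, 0.134 and 0.136 in Ripk1-Con mice 29, 32, 40 and 41. Mouse 37 lay just below control mouse 32, so the groups met. The Psmb10 to Psmb7 ratio was 1.01, 0.677, 0.778 and 0.743 in Ripk1-hepKO, against 0.603, 0.639, 0.567 and 0.396 in Ripk1-Con. These groups did not overlap, with means of 0.801 ± 0.143 for Ripk1-hepKO and 0.551 ± 0.107 for Ripk1-Con (SD, n = 4 each). The values of Psmb10 alone did overlap, and mouse 28 had the highest ratio. The Psmb9 to Psmb6 ratio was 0.0550, 0.0515, 0.0325 and 0.0575 in Ripk1-hepKO, against 0.0268, 0.0355, 0.0432 and 0.0344 in Ripk1-Con, and mouse 37 again lay among the controls. On the log2 scale the ratios differed by 0.35, 0.55 and 0.48 for the Psmb8, Psmb10 and Psmb9 pairs, beside pooled SDs between mice of 0.16, 0.28 and 0.34. With single mice left out, these differences ran from 0.27 to 0.41, 0.40 to 0.63 and 0.35 to 0.66 in the same order. No test was made, as the genes were chosen with earlier results of these data known. How often ratios of other gene pairs separate the groups was not tested.

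The same contrast over all immune and constitutive genes gave groups that were apart. The mean log2 CPM of the 5 immune genes minus that of the 31 constitutive subunits was -1.32, -1.66, -1.67 and -1.54 in Ripk1-hepKO mice 28, 34, 37 and 39. It was -1.84, -1.86, -1.84 and -1.99 in Ripk1-Con mice 29, 32, 40 and 41. Means were -1.55 ± 0.16 for Ripk1-hepKO and -1.88 ± 0.07 for Ripk1-Con (SD, n = 4 each), so each Ripk1-hepKO mouse lay above each control, mouse 28 most. The immune part alone was 4.37 in mice 34 and 37, only narrowly above 4.34 in control mouse 32. The constitutive part of control mouse 32 was 6.20, above 6.03 in mouse 34 and 6.04 in mouse 37, which widened the gap. How often other gene sets separate the groups in this way was not tested. All 5 immune genes had fold changes above 0, also without mouse 28, and their median log2 fold change was 0.35, the value of Psmb8. It was 0.24 without mouse 28 and 0.20 without mice 28 and 40, where Psme2 was below 0. Of all genes tested, 51.8% were above 0.

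The immune subunit transcripts were the scarcest of the set once length was allowed for. Over the 8 mice, Psmb9 averaged 1.41 ± 0.358, Psmb8 6.45 ± 1.13 and Psmb10 9.95 ± 2.63 CPM per kilobase (SD, n = 8). These were the 3 lowest of the 38 genes, and again the 3 lowest with the longest protein-coding transcript as length. The next in order, Psmd14 at 12.3 ± 1.86 CPM per kilobase, overlapped Psmb10 within its spread. With the other length Psmb8 stood above Psmb10, at 13.4 ± 2.35 CPM per kilobase for Psmb8 and 12.9 ± 3.43 CPM per kilobase for Psmb10 (SD, n = 8), a gap within their spread. Psme1 and Psme2 stood at 25.6 and 22.8 CPM per kilobase, inside the range of 12.3 to 56.6 of the constitutive subunits. As a share of the pair in level per length, Psmb8 made up 15.6% ± 1.77 (SD, n = 4) in Ripk1-hepKO and 12.6% ± 0.959 (SD, n = 4) in Ripk1-Con. That share came to 27.7% for Ripk1-hepKO and 23.1% for Ripk1-Con with the longest transcript as length, so its absolute size depends on the length used.

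**Figure D3:**
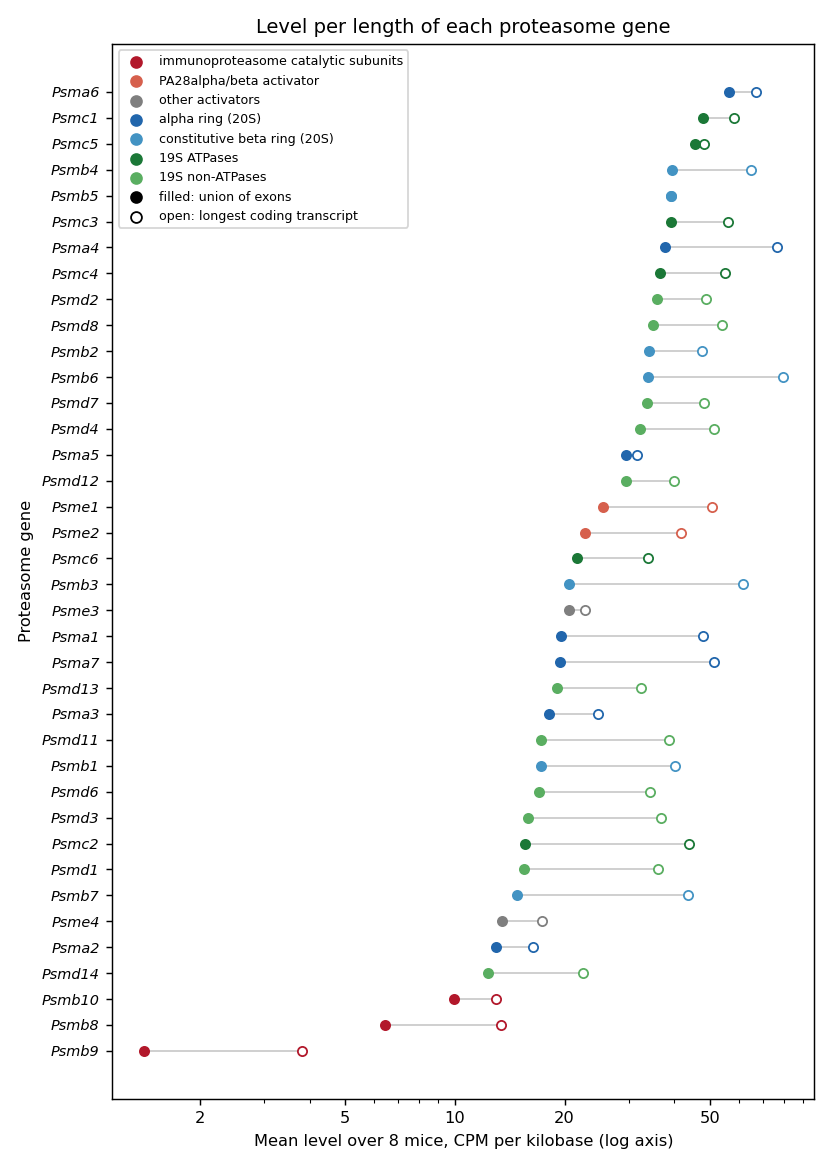
Mean level per length of each proteasome gene over the 8 mice, in CPM per kilobase on a log axis, with the union of exons (filled) or the longest protein-coding transcript (open) as length. Psmb9, Psmb8 and Psmb10 are the 3 lowest genes by either length.

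Leukocyte and other marker genes are given beside these values, as immune cells express the immunoproteasome. Neutrophil markers had 7 of 7 tested genes above 0, with summed levels of 10.4 to 49.7 CPM in Ripk1-hepKO and 3.85 to 35.1 CPM in Ripk1-Con. Monocyte and dendritic cell markers had 5 of 6 above 0, at 16.7 to 23.8 CPM in Ripk1-hepKO and 7.90 to 22.1 CPM in Ripk1-Con. Kupffer cell and macrophage markers had 9 of 10 above 0, at 277 to 417 CPM in Ripk1-hepKO and 112 to 461 CPM in Ripk1-Con. The ranges of these lists overlapped between the groups, with control mouse 40 lowest in each. T and NK cell markers had 5 of 10 above 0, at 6.61 to 8.60 CPM in Ripk1-hepKO and 5.11 to 8.19 CPM in Ripk1-Con, and B and plasma cell markers 2 of 4, at 4.15 to 27.8 CPM in Ripk1-hepKO and 2.49 to 18.0 CPM in Ripk1-Con. Stellate cell markers had 8 of 8 above 0, at 302 to 428 CPM in Ripk1-hepKO and 253 to 310 CPM in Ripk1-Con, with mouse 28 highest. Endothelial markers had 6 of 7 above 0, at 142 to 220 CPM in Ripk1-hepKO and 108 to 191 CPM in Ripk1-Con, and cholangiocyte markers 5 of 5, at 15.5 to 62.8 CPM in Ripk1-hepKO and 13.5 to 34.7 CPM in Ripk1-Con. Mouse 28 was also highest for the cholangiocyte, neutrophil and monocyte lists. Control mouse 40 was also lowest for the T and NK cell, B and plasma cell, stellate cell and cholangiocyte lists. Medians of the marker lists with mouse 40 left out were not computed. With mouse 28 left out, the median log2 fold change was 0.14 in place of 0.45 for stellate markers, -0.01 in place of 0.35 for cholangiocyte markers and 0.41 in place of 0.50 for neutrophil markers. It was 0.39 in place of 0.33 for T and NK cell markers and -0.24 in place of 0.03 for B and plasma cell markers. For Kupffer cell and macrophage markers it was 0.09 in place of 0.15. For monocyte and dendritic cell markers it was 0.15 in place of 0.10, and for endothelial markers 0.17 in place of 0.07. Hepatocyte markers had 2 of 12 above 0, with a median of -0.14, and -0.24 with mouse 28 left out. No listed marker was at 0 in all 8 mice, while Nkg7, Ncr1, Ms4a1, Pax5, Flt3, Cd209a, Ly6g, Retnlg, Ngp and Cftr were at 0 in at least 1 mouse. The part of cell content in the values of the immune genes was not tested.

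The constitutive core and cap showed small differences in both directions. Of the 31 subunits 12 were above 0 and 19 below 0, with log2 fold changes of -0.24 to 0.29 and a median of -0.04. For 30 of them the 95% interval of the fold change lay inside 1.5-fold in either direction, Psmd8 being the exception. Without mouse 28, 2 of 31 were above 0 and the median was -0.09, and without mice 28 and 40 it was -0.12, beside 0.00 over all genes in either case. Their levels were steady from mouse to mouse, with a median coefficient of variation over the 8 mice of 8.02%, beside 21.3% over all genes tested and 15.7% over the 8494 genes in the CPM range of the 38. The 5 immune genes had 15.9% to 26.5%.

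**Figure D4:**
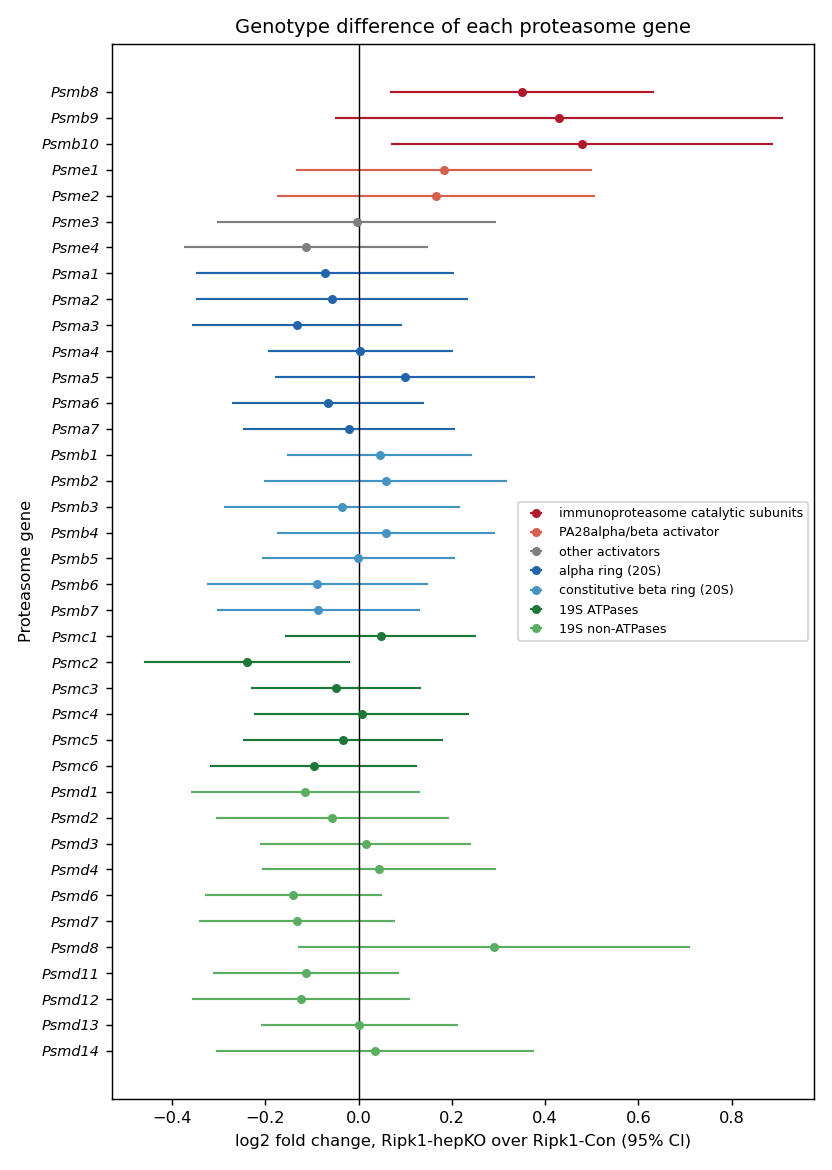
Log2 fold change, Ripk1-hepKO over Ripk1-Con, of each proteasome gene with its unadjusted 95% interval, coloured by role. The intervals of Psmb8, Psmb10 and Psmc2 leave out 0, and none of the 38 genes passed after adjustment over all genes tested.

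In the alpha ring, whose subunits form the gate of the core, 2 of 7 genes were above 0 and the median log2 fold change was -0.06. Psma3 (chromosome 12, 70974621 to 70996347) stood at 74.4, 60.1, 67.03 and 67.2 CPM in Ripk1-hepKO mice 28, 34, 37 and 39, against 74.5, 80.4, 69.7 and 69.9 CPM in Ripk1-Con mice 29, 32, 40 and 41. Psma5 (chromosome 3, 108256926 to 108279974) stood at 49.9, 38.6, 37.2 and 35.8 CPM in Ripk1-hepKO, against 39.7, 39.7, 34.5 and 36.9 CPM in Ripk1-Con. The groups overlapped for both genes (edgeR adjusted p = 0.809 and 0.886). Mouse 28 was the highest of the 8 for Psma5, whose log2 fold change was 0.10, and -0.02 with mouse 28 left out. In the constitutive beta ring 3 of 7 were above 0, and Psmb6 and Psmb7, given above, had the smallest unadjusted p.

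The ring of 6 ATPases at the base of the 19S cap unfolds substrates and threads them into the core. Psmc2 (ENSMUSG00000028932, chromosome 5, 21785283 to 21803787, plus strand), one of these ATPases, was the constitutive gene whose groups did not overlap. It stood at 71.4, 72.1, 69.3 and 75.3 CPM in Ripk1-hepKO mice 28, 34, 37 and 39, against 78.9, 90.5, 93.8 and 76.9 CPM in Ripk1-Con mice 29, 32, 40 and 41. Ripk1-hepKO mice lay within a narrow band, while controls 29 and 41 stood close above it and controls 32 and 40 further off. Psmc2 averaged 72.0 ± 2.49 CPM in Ripk1-hepKO and 85.0 ± 8.37 CPM in Ripk1-Con (SD, n = 4 each), a 0.847-fold level with a 95% interval of 0.727 to 0.988 (edgeR adjusted p = 0.742). Psmc6 (chromosome 14, 45329788 to 45349705) stood at 78.3, 72.5, 72.2 and 70.2 CPM in Ripk1-hepKO, against 79.6, 88.5, 72.3 and 73.0 CPM in Ripk1-Con, with overlap (edgeR adjusted p = 0.859). Psmc3 was the steadiest of the 38 genes, at 100.1 ± 2.48 CPM in Ripk1-hepKO and 104 ± 1.84 CPM in Ripk1-Con.

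The non-ATPase subunits of the cap are mostly structural, and a few of them bind ubiquitin chains or remove them. Psmd8 (ENSMUSG00000030591, chromosome 7, 29174188 to 29180701, minus strand), a lid subunit, stood at 171, 106, 102 and 92.3 CPM in Ripk1-hepKO mice 28, 34, 37 and 39, against 93.2, 91.2, 102 and 99.2 CPM in Ripk1-Con mice 29, 32, 40 and 41. Mouse 28 was far above the other 7. On the log2 scale the difference was 0.29 ± 0.19 (SE; edgeR adjusted p = 0.784), and 0.05 without that mouse. Psmd6 (chromosome 14, 14112174 to 14120984), also of the lid, stood at 45.4, 43.4, 47.0 and 45.4 CPM in Ripk1-hepKO, against 46.1, 51.0, 51.8 and 50.7 CPM in Ripk1-Con. Controls 32, 40 and 41 lay above every Ripk1-hepKO mouse, and control 29 among them (edgeR adjusted p = 0.778). Psmd14, which encodes the deubiquitinase of the lid, stood at 35.1 ± 5.77 CPM in Ripk1-hepKO and 34.3 ± 5.51 CPM in Ripk1-Con. Psmd2, a scaffold of the base, was the most counted of the 38 genes, at 142 ± 12.8 CPM in Ripk1-hepKO and 147 ± 13.8 CPM in Ripk1-Con (SD, n = 4 each).

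Promoter windows from RefSeq (GRCm38.p6), the 250 bases before each start, were found for 32 of the 38 genes, while Psmb1, Psmb2, Psmb7, Psmc3, Psmd3 and Psmd7 had none. They were searched on both strands, overlaps allowed, for letters linked to the regulators of each class. Those were TGACNNNGC, the core of the antioxidant response element that NFE2L1 and NFE2L2 use, and CCAAT. For the interferon response they were GAAA, any 2 bases and GAAA, the core of the interferon-stimulated response element (ISRE), and TTCNNNGAA, the core of the gamma-activated site. One form of the kappa B motif, GGGA, any base and TTTCC, was added. No matches printed below overlap each other. The promoters below are shown for the catalytic pairs and for the matches found, 5′ to 3′ on the strand of the gene, with matches in capitals. Bases inside annotated exons were left out for Psmb5 (chr14:54618023-54618245, minus strand), Psmb6 (chr11:70525107-70525356, plus strand) and Psmb10 (chr8:105938445-105938642, minus strand). The 30 bases round 1 match are given for Psmc6 (chr14:45329586-45329615), Psmd12 (chr11:107479278-107479307) and Psmb8 (chr17:34198087-34198116), all on the plus strand.
Psmb5: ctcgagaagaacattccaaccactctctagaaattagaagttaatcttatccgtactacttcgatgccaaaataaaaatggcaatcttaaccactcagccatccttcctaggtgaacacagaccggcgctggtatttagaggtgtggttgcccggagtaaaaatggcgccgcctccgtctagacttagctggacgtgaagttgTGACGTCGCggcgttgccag
Psmb6: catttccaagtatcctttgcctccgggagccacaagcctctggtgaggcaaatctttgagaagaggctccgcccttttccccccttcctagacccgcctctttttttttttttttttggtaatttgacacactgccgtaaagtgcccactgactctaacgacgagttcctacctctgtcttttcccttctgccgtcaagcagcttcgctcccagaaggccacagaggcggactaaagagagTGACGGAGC
Psmb10: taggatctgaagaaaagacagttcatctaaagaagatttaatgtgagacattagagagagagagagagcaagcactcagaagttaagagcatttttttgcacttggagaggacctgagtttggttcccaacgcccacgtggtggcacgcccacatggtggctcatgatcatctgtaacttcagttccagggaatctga
Psmc6: gccagccagtaGCTAAGTCAggcattgctc
Psmd12: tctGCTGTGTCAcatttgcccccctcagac
Psmb8: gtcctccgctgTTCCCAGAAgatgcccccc
In Psmb5 and Psmb6 the capitals mark TGACNNNGC, which begins 47 and 9 bases before the start. Psmc6 and Psmd12 carry it on the other strand. In Psmb8 they mark TTCNNNGAA, which reads the same on both strands and begins 97 bases before the RefSeq start, inside an exon of a longer annotated transcript. The printed stretch of Psmb10 held none of the 5 motifs.

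The shares of windows with a match were near those of all promoters for the motifs found most. TGACNNNGC was in 4 of 27 windows of constitutive genes (14.8%), beside 10.2% of all 32851 windows, and in 0 of 6 windows of immune genes. CCAAT was in 10 of 27 constitutive and 1 of 6 immune windows (Psmb9), beside 33.8% of all. The ISRE core was in 2 of 27 constitutive windows (Psmb3 and Psmd4), beside 2.98% of all, and in 0 of 6 immune windows. TTCNNNGAA was in 0 of 27 and 1 of 6, beside 7.02% of all, and the kappa B letters in 0 of 27 and 0 of 6, beside 0.356% of all. These counts describe letters in a window and are no evidence of binding.

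Position in the genome is shared by some of the immune genes. Psmb8 and Psmb9 lie 9957 bases apart in the MHC region of chromosome 17, with Tap1 between them. Tap1 encodes a subunit of the peptide transporter of antigen presentation, and its annotated start overlaps that of Psmb9 on the opposite strand. Psme1 and Psme2 lie 5912 bases apart on chromosome 14, and Psmb10 stands alone on chromosome 8. Of the 38 genes 16 have an annotated neighbour on the opposite strand, and as the strand setting of the counting is not given, reads of such pairs may be shared. The antisense genes at Psmb8 and Psmb10 were at 0 CPM and at most 0.217 CPM in any mouse, while Tap1 stood at 10.1 to 16.9 CPM in Ripk1-hepKO and 9.28 to 14.0 CPM in Ripk1-Con. Nek6, which overlaps Psmb7 on the opposite strand, stood at 59.8 to 108 CPM in Ripk1-hepKO and 66.8 to 94.1 CPM in Ripk1-Con. Whether its reads enter the counts of Psmb7, and so the Psmb10 to Psmb7 ratio, was not tested.

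Genes that act with the immunoproteasome in antigen presentation were read from a list of 12, and 0 passed in either direction with edgeR, DESeq2 or limma voom. At an unadjusted p under 0.05, 3 were higher, beside 3.86% of all genes tested. The list was chosen with earlier results of these data known, so that count was not tested. Tap2, the partner of Tap1, stood at 21.9, 17.0, 18.3 and 20.7 CPM in Ripk1-hepKO mice 28, 34, 37 and 39, against 13.7, 16.0, 17.3 and 13.7 CPM in Ripk1-Con mice 29, 32, 40 and 41. Tapbpl, which edits the peptides of MHC class I, averaged 18.4 ± 1.29 CPM in Ripk1-hepKO and 14.9 ± 0.836 CPM in Ripk1-Con without overlap (edgeR adjusted p = 0.742 for both genes). Of all genes tested, 2.01% were higher without overlap. The third gene of the list at an unadjusted p under 0.05 was Tapbp. Nlrc5, an activator of MHC class I genes, stood at 28.4 ± 11.1 CPM in Ripk1-hepKO and 24.1 ± 8.73 CPM in Ripk1-Con, and H2-K1, a class I heavy chain, at 1118 ± 138 CPM in Ripk1-hepKO and 1024 ± 133 CPM in Ripk1-Con (edgeR adjusted p = 0.904 and 0.868). The median log2 fold change of the list was 0.15, 0.05 without mouse 28 and -0.02 without mice 28 and 40.

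Genes of interferon-gamma signal and response had a median log2 fold change of 0.08 over 17 tested genes, 11 above 0. That median was 0.03 without mouse 28 and -0.05 without mice 28 and 40. None passed with edgeR, DESeq2 or limma voom, while Cxcl9 and Gbp2 were higher at an unadjusted p under 0.05, beside 3.86% of all genes tested. Cxcl9, a chemokine, stood at 17.2, 6.91, 9.30 and 21.9 CPM in Ripk1-hepKO mice 28, 34, 37 and 39, against 4.71, 7.34, 3.59 and 7.24 CPM in Ripk1-Con mice 29, 32, 40 and 41. Gbp2, a guanylate-binding protein, stood at 29.3, 7.39, 8.24 and 16.7 CPM in Ripk1-hepKO, against 9.21, 5.80, 5.45 and 5.01 CPM in Ripk1-Con. Mice 28 and 39 were high for both genes, and mice 34 and 37 lay near the controls. The log2 fold change of Gbp2 was 1.28, and 0.77 with mouse 28 left out, while that of Cxcl9 was 1.27, and 1.15 with mouse 28 left out. Irf1, a transcription factor of the interferon response, stood at 22.3 ± 3.85 CPM in Ripk1-hepKO and 24.3 ± 6.38 CPM in Ripk1-Con (edgeR adjusted p = 0.916). Ifng itself did not pass the filter on low counts.

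Genes that control the constitutive proteasome were read from the list of the NFE2L1 pathway, in which 4 of 10 were above 0 and 0 passed with edgeR, DESeq2 or limma voom. The median log2 fold change was -0.05, and -0.02 without mouse 28. Nfe2l1 itself was the 1 gene with an unadjusted p under 0.05, on the lower side, beside 2.82% of all genes tested. It stood at 132, 122, 144 and 123 CPM in Ripk1-hepKO mice 28, 34, 37 and 39, against 172, 172, 153 and 135 CPM in Ripk1-Con mice 29, 32, 40 and 41. Control mouse 41 lay below mouse 37, and the other 3 controls lay above every Ripk1-hepKO mouse. Nfe2l1 averaged 130.3 ± 10.5 CPM in Ripk1-hepKO and 158 ± 17.8 CPM in Ripk1-Con (SD, n = 4 each), a 0.825-fold level with a 95% interval of 0.690 to 0.987 (edgeR adjusted p = 0.742). Ngly1, the glycanase that processes NFE2L1, stood at 30.7 ± 4.34 CPM in Ripk1-hepKO and 34.8 ± 1.92 CPM in Ripk1-Con (edgeR adjusted p = 0.789).

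The remaining lists had medians near 0 and 0 genes past the threshold with edgeR, DESeq2 or limma voom. The 9 assembly chaperones had a median log2 fold change of -0.03, and 0.02 without mouse 28. Pomp, which matures the core, stood at 60.2 ± 5.36 CPM in Ripk1-hepKO and 57.1 ± 3.73 CPM in Ripk1-Con, and Psmd9, an assembly chaperone of the base, at 29.7 ± 5.50 CPM in Ripk1-hepKO and 32.3 ± 1.31 CPM in Ripk1-Con. The 8 other subunits and bound proteins had a median of -0.01, and -0.10 without mouse 28. Psmf1, an inhibitor of the proteasome, stood at 20.2 ± 2.79 CPM in Ripk1-hepKO and 18.7 ± 1.16 CPM in Ripk1-Con, and Adrm1, a ubiquitin receptor, at 59.0 ± 3.07 CPM in Ripk1-hepKO and 62.8 ± 7.17 CPM in Ripk1-Con. The 6 genes of ubiquitin and its activation had a median of -0.02, and -0.04 without mouse 28, with Uba6, an activating enzyme, at 8.33 ± 2.204 CPM in Ripk1-hepKO and 9.58 ± 0.268 CPM in Ripk1-Con. None of these 3 lists had a gene with an unadjusted p under 0.05. The list of 9 shuttle factors and VCP partners had a median of -0.04. That median turned to 0.02 without mouse 28 and 0.09 without mice 28 and 40. The list held 1 gene with an unadjusted p under 0.05, on the lower side, beside 2.82% of all genes tested. It was Ubqln1, which carries ubiquitinated proteins to the proteasome. Ubqln1 stood at 104, 109, 109 and 113 CPM in Ripk1-hepKO mice 28, 34, 37 and 39, against 120, 138, 126 and 130 CPM in Ripk1-Con mice 29, 32, 40 and 41, without overlap (edgeR adjusted p = 0.742). Of all genes tested, 2.09% were lower without overlap. Rad23b, another shuttle, stood at 178 ± 11.2 CPM in Ripk1-hepKO and 199.9 ± 14.7 CPM in Ripk1-Con.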

How the data were processed

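Per the labels' protocols, strand-marked libraries were made from polyadenylated whole-liver RNA. The authors deposited raw, whole-number counts for each Ensembl gene ID as a single table of the series. Software listed in the submitters' processing notes was STAR 2.5.2b, FastQC 0.11.5, DESeq2 1.38.1 and StringTie 2.2.1, and the build was GRCm38.p6. Which program counted, with which annotation and strand setting, is not given in the sources used here. GENCODE M21 (GRCm38) supplied symbols and lengths for 55154 of 55335 IDs.

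Genotype was tested over all 8 mice by edgeR 4.0.16 (R 4.3.3) with filterByExpr, TMM and a robust quasi-likelihood fit, and p was adjusted by Benjamini-Hochberg over 15234 genes (FDR 0.05). Each fold change sets Ripk1-hepKO over Ripk1-Con, with a 95% interval from the quasi-likelihood fit. The libraries differed beyond sampling noise in all 28 pairs (chi-square per degree of freedom at least 36.9). The common biological coefficient of variation was 0.292.

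The 38 genes and the gene lists were chosen with earlier results of these data known, so no p is given for a list or for a score over it. Values in every mouse are given for the 5 immune genes, their constitutive counterparts, Psme3, Psme4 and the 2 genes of smallest p in each other role group. Of further genes, 7 fixed ones and the 2 of smallest p in each pathway list were chosen, of which some are not reported here. Psmc3, Psmd2, Psmd14, Tapbp and the promoter genes were named after their values were seen.

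On counts simulated for this comparison over 15234 genes, the test recovered 2% of genes changed 1.5-fold, 30% at 2-fold, 84% at 4-fold and 92% at 8-fold, with 9 calls among 15034 unchanged genes. Alternatives were DESeq2 1.42.0, limma 3.58.1 voom, other scalings and filters, each mouse left out, mice 28 and 40 left out, and another gene length.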

Additional observations from a re-analysis of the deposited data

Results flagged for a closer look

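The 38 proteasome genes and 20 other genes were each screened for a mouse that lay far from the other 3 of its group, over 116 sets of 4 values, and 6 were found, 4 of them among the proteasome genes. Chance gives about 1 in 20 sets. In Ripk1-hepKO, mouse 28 was high for Psmb2 at 49.9 CPM, where the other 3 mice had 38.2 to 39.5 CPM. It was high for Psmb4 at 91.5 CPM, beside 73.2 to 74.8 CPM, and for Psmb8 at 29.9 CPM, beside 22.2 to 23.3 CPM. It was low for Rad23b at 161 CPM, beside 181 to 185 CPM. In Ripk1-Con, mouse 41 was high for Psmb7 at 58.4 CPM, beside 49.0 to 50.6 CPM, and mouse 32 for H2-K1 at 1222 CPM, beside 943 to 974 CPM.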

How the results depend on the processing

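No proteasome gene passed the threshold under any of the 17 alternative fits. Over all genes, the DESeq2 Wald test called 36 genes and the other fits 0. The number of proteasome genes with an unadjusted p under 0.05, 3 of 38, was 1 to 3 with single mice left out (1 without control mouse 40) and 0 without mice 28 and 40. The median log2 fold change of the constitutive subunits, -0.04, ran from -0.09 to -0.004 with single mice left out and was -0.12 without mice 28 and 40. That of the 5 immune genes, 0.35, stayed above 0, at 0.20 to 0.40 over all alternatives. With the longest protein-coding transcript as length, the mean Psmb8 to Psmb5 ratio came to 0.384 for Ripk1-hepKO and 0.301 for Ripk1-Con, and the mean Psmb10 to Psmb7 ratio to 0.353 for Ripk1-hepKO and 0.243 for Ripk1-Con, as the length itself sets the ratio. Of 36 genes followed singly, 8 changed sign under some alternative, and the cause was not tested. Psmb5 was 0.00075 with DESeq2 size factors, 0.027 with library size alone, 0.012 with no filter, 0.0034 with at least 1 CPM in 4 libraries and 0.000299 with DESeq2, and -0.027 to 0.054 with single mice left out. Psme3 was 0.025 with library size alone, 0.0084 with no filter, 0.0037 with voom, 0.089 with weighted voom and 0.14 without mice 28 and 40, and -0.088 to 0.10 with single mice left out. Nlrc5 was -0.045 with weighted voom and -0.26 without mice 28 and 40, and -0.049 to 0.45 with single mice left out. Without mice 28 and 40, Psme2 was -0.016, Psma5 -0.059 and Pomp -0.020. With single mice left out, Psma5 ran from -0.018 to 0.16, Irf1 from -0.27 to 0.026 and Ripk1 from -0.32 to 0.019. No paired analysis was possible because the groups share no mouse numbers. With 4 mice a group, differences of 1.5-fold were seldom recovered in simulated counts. The changed genes there were drawn at random from all genes tested, whose median SE was 0.21 on the log2 scale, beside 0.13 for Psmb8. Whether a difference of the size seen for Psmb8 could be called in this design was therefore not tested.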
